A study of Mus musculus with 9 samples.

Results

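Collagens are the triple-helical proteins that form most of the extracellular matrix, and in a lymphoma grown in a mouse they are taken to come mainly from the stroma of the host. This account covers the collagen genes in 9 T-cell lymphomas. They were taken as every gene of the array annotation whose symbol reads Col, a number, a and a number, with 1 probe set for each gene, the one with the highest mean signal over the 9 arrays. The rule found 42 genes, with 82 probe sets, among 18193 genes that had a probe set of their own. Of these 42 genes 26 passed the filter on low signals, beside 12375 of all genes. Col28a1 and Col6a6 were not analysed here.

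All 9 tumours had the genotype G3 Atm-/-TERT-ER and grew in SCID recipients. Atm is a kinase that signals DNA breaks, and TERT-ER is the telomerase reverse transcriptase joined to the oestrogen receptor, which 4-OHT (4-hydroxytamoxifen) switches on. The lymphomas first arose in mice given 4-OHT, and 1 tumour is the parental one. At passage 4 there were 3 tumours from recipients kept on 4-OHT, labelled telomerase, and 5 from recipients kept on vehicle, labelled ALT for alternative lengthening of telomeres. The submitters' design states that both kinds came from the same parental lines. SCID mice are hosts without mature B and T lymphocytes, and they keep fibroblasts, vessels and myeloid cells. Neither the age of the animals nor the promoter behind TERT-ER is given in the sources used here. Whether the numbered tumours came from separate animals is not in the labels either, and the p-values therefore cover the spread between these samples alone, which may be technical.

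Fibrillar collagens (types I, III, V and relatives) assemble into the fibres that give tissue its tensile strength, and fibroblasts are their main source. Type IV collagens form the sheet-like network of basement membranes under vessels and epithelia, and type VI collagens form beaded filaments near cells. The chains are hydroxylated and folded in the endoplasmic reticulum, where the chaperone Serpinh1 binds them, and after secretion the fibres are cross-linked by lysyl oxidases and cut by metalloproteinases.

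The levels of the fibrillar and type VI collagens differed several-fold between tumours, and this spread crossed the labels: high and low tumours occurred in both groups. The comparison of the 5 ALT with the 3 telomerase tumours, the one the study's design names, called 2 of 26 tested collagen genes (7.69%) with limma at an adjusted p under 0.05. Of all tested genes 17.5% were called, 7.47% as higher and 10.1% as lower in ALT tumours. Col14a1 was higher and Col23a1 was lower. The same 2 collagen genes were the ones with an unadjusted p under 0.05, beside 3887 of all 12375 tested genes.

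The stretches of 250 bases before the RefSeq start of 4 collagen genes are shown because these genes bear on the main pattern: Col1a2, Col3a1 and Col6a1 were high and low in the same tumours, and Col27a1 ran the other way. They come from the RefSeq annotation of mouse build GRCm38.p6, in which 33 of the 42 genes had such a window, and each is written 5′ to 3′ along its gene. Col1a2 lies on the plus strand at chr6:4505368-4505617, Col3a1 on the plus strand at chr1:45311288-45311537, Col6a1 on the minus strand at chr10:76726045-76726294 and Col27a1 on the plus strand at chr4:63215162-63215411. Capitals mark the CCAAT box (CCAAT, or ATTGG on the other strand), the GC box (GGGCGG, or CCGCCC on the other strand) and the TATA box (TATAAA, or TTTATA on the other strand).
Col1a2: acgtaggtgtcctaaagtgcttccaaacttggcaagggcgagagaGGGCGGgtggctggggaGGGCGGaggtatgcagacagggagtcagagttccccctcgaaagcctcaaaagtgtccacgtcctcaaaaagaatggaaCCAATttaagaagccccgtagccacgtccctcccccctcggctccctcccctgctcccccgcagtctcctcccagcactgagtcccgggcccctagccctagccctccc
Col3a1: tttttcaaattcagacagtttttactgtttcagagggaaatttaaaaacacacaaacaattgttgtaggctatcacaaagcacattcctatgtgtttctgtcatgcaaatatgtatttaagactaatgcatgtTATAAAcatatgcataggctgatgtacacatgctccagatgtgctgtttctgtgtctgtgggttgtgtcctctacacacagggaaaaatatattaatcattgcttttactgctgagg
Col6a1: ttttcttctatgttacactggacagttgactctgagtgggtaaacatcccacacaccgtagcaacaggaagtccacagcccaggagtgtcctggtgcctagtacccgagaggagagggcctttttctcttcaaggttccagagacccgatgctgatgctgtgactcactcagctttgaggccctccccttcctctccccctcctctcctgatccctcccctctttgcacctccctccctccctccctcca
Col27a1: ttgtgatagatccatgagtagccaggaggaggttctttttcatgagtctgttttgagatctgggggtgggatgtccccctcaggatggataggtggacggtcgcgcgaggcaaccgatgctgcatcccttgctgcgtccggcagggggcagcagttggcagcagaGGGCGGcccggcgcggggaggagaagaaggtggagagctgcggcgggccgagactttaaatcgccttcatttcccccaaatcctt

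The Col1a2 window held a CCAAT box from 109 to 105 bases before the start and 2 GC boxes, the Col3a1 window held a TATA box from 117 to 112 bases before the start, the Col27a1 window held 1 GC box, and the Col6a1 window held none of these motifs. Col1a2, Col3a1 and Col6a1, only some of the genes that moved together, shared none of the 3 motifs. The window of Col6a3, another of those genes, is not shown and held none of them, like that of Col6a1. Of 32851 RefSeq promoter windows of this length 33.8% held a CCAAT box, 32.7% a GC box and 12.4% a TATA box, on either strand. Among 38 windows of collagen genes the shares were 34.2%, 57.9% and 13.2%. A match of these letters is a description of the sequence and not a binding site.

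Col1a1 and Col1a2 encode the 2 chains of type I collagen, the main protein of connective tissue fibres. Col1a1 had a signal of 228 in the parental tumour, 212, 197 and 102 in telomerase tumours 1 to 3, and 111, 89.6, 270.4, 44.0 and 194 in ALT tumours 1 to 5. Col1a2 had a signal of 1134 in the parental tumour, 1142, 1005 and 486 in the telomerase tumours, and 459, 533, 1615, 344 and 1395 in the ALT tumours. For both genes the parental tumour, telomerase tumours 1 and 2 and ALT tumours 3 and 5 lay above telomerase tumour 3 and ALT tumours 1, 2 and 4, so that the ALT tumours reached both above and below all telomerase tumours. The highest tumour exceeded the lowest 6.14-fold for Col1a1 and 4.69-fold for Col1a2. A signal of one gene cannot be set against that of another on this array, so only tumours are compared within a gene.

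Type III collagen, a homotrimer of Col3a1 chains that is common in soft and healing tissue, showed the same division. Col3a1 had a signal of 1949 in the parental tumour, 2037, 1759.8 and 628 in the telomerase tumours, and 551, 705, 2029, 408 and 2288 in the ALT tumours. No tumour had a signal between 705 and 1759.8. The mean was 1475 ± 747 (SD, n = 3) in telomerase and 1196 ± 889.5 (SD, n = 5) in ALT tumours, and the log2 change of ALT against telomerase was -0.47, with a 95% interval from -1.82 to 0.88 and an adjusted p of 0.641 (limma). The interval spans changes in either direction, leaving out 1 array gave changes from -0.99 (without telomerase tumour 3) to -0.16 (without telomerase tumour 1), and the missed threshold does not show that the groups were alike.

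Type V collagen is incorporated into type I fibres and limits their diameter, and Col5a2 encodes one of its chains. Col5a2 had a signal of 154 in the parental tumour, 169, 162 and 108 in the telomerase tumours, and 96.5, 104, 238, 58.7 and 281 in the ALT tumours, with the same tumours high and low. Col5a3, named here after its values were seen, had a weak signal with a wide range, from 3.88 in ALT tumour 2 and 6.48 in ALT tumour 4 to 77.9 in telomerase tumour 2. Its log2 change was -0.77, with a 95% interval from -1.89 to 0.36 and an adjusted p of 0.335 (limma). Col5a1, the other chain of the common type V molecule, did not show this division in its strongest probe set, whose signal lay between 60.6 in telomerase tumour 1 and 112 in ALT tumour 3. A second, weaker probe set of Col5a1 (r = 0.5 with the first) came closer to it, at 62.5 in the parental tumour, 45, 61.7 and 46.8 in the telomerase tumours, and 18.9, 41.8, 75.6, 25.5 and 61.8 in the ALT tumours.

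Type VI collagen is built from 3 different chains, and the genes of its chains Col6a1 and Col6a2 are neighbours on chromosome 10. Col6a1 had a signal of 132 in the parental tumour, 137, 132 and 86.9 in the telomerase tumours, and 117, 117, 201, 78.6 and 161 in the ALT tumours. Col6a2 had a signal of 216 in the parental tumour, 295, 192 and 153 in the telomerase tumours, and 171, 143, 318, 93.4 and 247 in the ALT tumours. Col6a3, on chromosome 1, had a signal of 238 in the parental tumour, 264 in telomerase tumour 1, 205 in telomerase tumour 2 and 62.8 in telomerase tumour 3, and 106, 104, 212, 92.6 and 274 in the ALT tumours. All 3 chains were higher in the parental tumour, telomerase tumours 1 and 2 and ALT tumours 3 and 5 than in the other 4. The highest tumour exceeded the lowest 2.55-fold for Col6a1, 3.41-fold for Col6a2 and 4.36-fold for Col6a3.

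**Figure D1:**
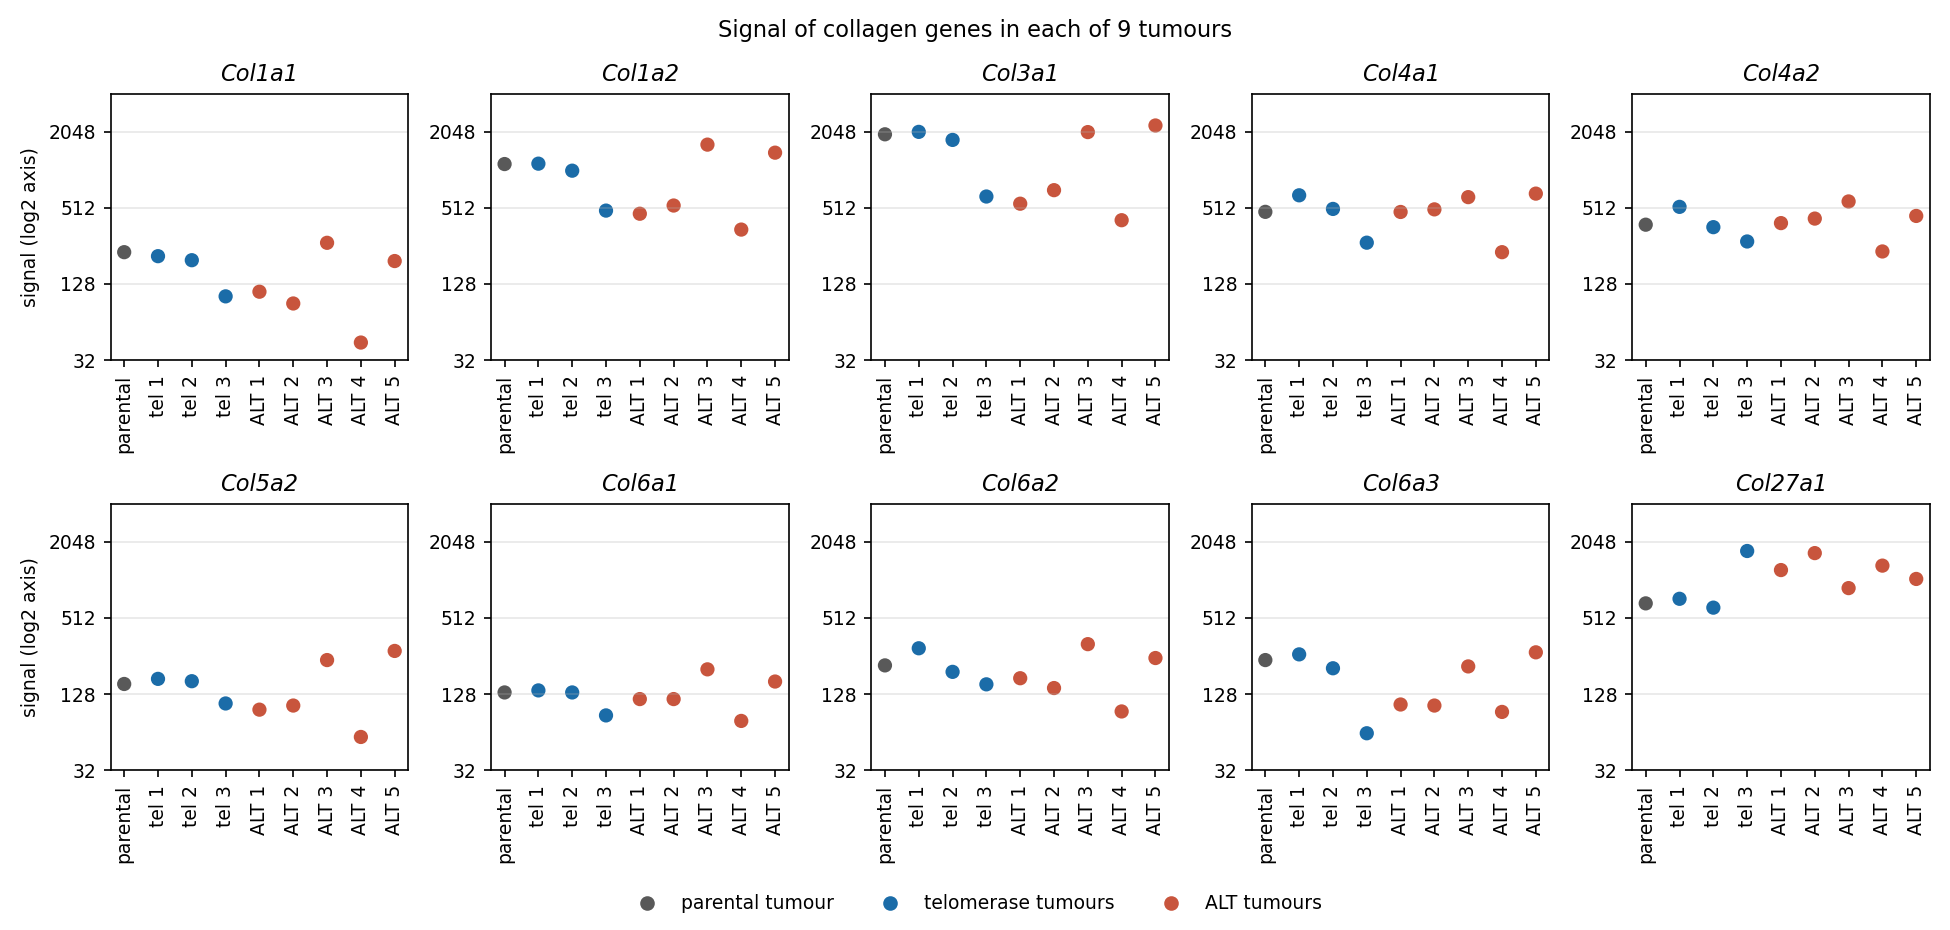
Signal (log2 axis, in the deposited linear units) of the 10 collagen genes with a mean of at least 100, in each of the 9 tumours; each point is 1 array, grey for the parental, blue for telomerase and red for ALT tumours. Telomerase tumour 3 and ALT tumours 1, 2 and 4 lie below the other 5 tumours for Col1a1, Col1a2, Col3a1, Col5a2, Col6a1, Col6a2 and Col6a3, and Col27a1 is highest in telomerase tumour 3.

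The division was counted over all collagen genes by ranking the 9 tumours within each gene. In 7 of the 10 genes with a mean signal of at least 100, and in 9 of the 26 tested genes (34.6%), the 5 highest tumours were the same as for Col3a1, which is itself 1 of them; Col5a3 and Col15a1, a collagen near basement membranes, were the ones outside the 10. Of 12349 tested genes outside the collagens 182 (1.47%) had the same 5 highest tumours. ALT tumour 4 was the lowest tumour in 8 of the 10 genes, ALT tumour 3 the highest in 5 and ALT tumour 5 the highest in 4. The tumours that mark the top and the bottom of this range therefore carry the same label. Over the 9 tumours the log2 signals of the 9 genes other than Col27a1 correlated with each other with r from 0.69 to 0.98 over 36 pairs (median 0.89), as a description over arrays that share the probe preparation and the scaling. In bulk tissue, fewer cells of a type and less RNA per cell cannot be told apart.

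The parental tumour resembled telomerase tumour 1 in the fibrillar genes, with signals of 1.07 times that tumour for Col1a1, 0.993 times for Col1a2 and 0.957 times for Col3a1. Within the telomerase group, tumour 1 exceeded tumour 3 by 3.24-fold for Col3a1 and by 4.21-fold for Col6a3. Within the ALT group, tumour 3 exceeded tumour 4 by 4.97-fold for Col3a1. The group means of these genes differed far less than single tumours of a group did.

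Type IV collagen of most basement membranes is made of Col4a1 and Col4a2 chains, whose genes lie head to head on chromosome 8 with starts 21 bases apart on opposite strands. Col4a1 had a signal of 475 in the parental tumour, 642, 501 and 271 in the telomerase tumours, and 474, 497, 621, 228 and 662 in the ALT tumours. Col4a2 had a signal of 376 in the parental tumour, 520.2, 359.5 and 277 in the telomerase tumours, and 387, 420.2, 574, 231 and 441 in the ALT tumours. The pair moved together (r = 0.94 over 9 tumours). Telomerase tumour 3 and ALT tumour 4 were low, as for the fibrillar genes, while ALT tumours 1 and 2 lay close to the parental tumour. The mean of Col4a1 was 471 ± 187 (SD, n = 3) in telomerase and 497 ± 169.7 (SD, n = 5) in ALT tumours, with a log2 change of 0.07, a 95% interval from -0.71 to 0.85 and an adjusted p of 0.914 (limma).

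Of the other basement membrane chains, Col4a3, Col4a4, Col4a5 and Col4a6 were below the filter and were not tested in the main comparison. The neighbouring X-linked genes Col4a5 and Col4a6, named after their values were seen, ran in opposite directions (r = -0.87 over 9 tumours). Col4a5 had a signal of 15.8 in the parental tumour, 8.23, 5.26 and 7.77 in the telomerase tumours, and 35.5, 20.7, 31.9, 21.3 and 51.9 in the ALT tumours. Col4a6 had a signal of 26.8 in the parental tumour, 24.2, 29.3 and 20.1 in the telomerase tumours, and 12.9, 12.6, 13.2, 20.0 and 9.33 in the ALT tumours. The groups did not overlap for either gene, although telomerase tumour 3 and ALT tumour 4 nearly met for Col4a6. With no filter on low signals limma called Col4a5 (log2 change 1.03, adjusted p = 0.0114) and did not call Col4a6 (-0.46, adjusted p = 0.103). The second probe sets of both genes overlapped between the groups, and the table holds no detection calls, so whether signals this low stand above background is unknown.

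Col27a1, a fibrillar collagen known from developing cartilage, ran against the other fibrillar genes with a mean of at least 100. The weaker tested fibrillar genes were mixed. Their r to the mean log2 signal of Col1a1, Col1a2 and Col3a1 was 0.85 for Col5a3, 0.32 for Col5a1 and -0.26 for Col11a2. Col27a1 had a signal of 668 in the parental tumour, 726, 618 and 1733 in the telomerase tumours, and 1225, 1668, 882, 1328 and 1042 in the ALT tumours. The 4 tumours that were lowest in Col3a1 were the 4 highest in Col27a1, and its correlation with the 9 other strong genes lay between -0.84 and -0.43. A second probe set of the gene moved with the first (r = 0.98). Its log2 change was 0.38 (95% interval from -0.32 to 1.08, adjusted p = 0.455, limma). The telomerase tumours decided this value: without tumour 3 the change was 0.83 with an adjusted p of 0.0353, without tumour 2 it was 0.09 (adjusted p = 0.896) and without tumour 1 it was 0.21 (adjusted p = 0.779).

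Col14a1 encodes a collagen of the FACIT class, which sits on the surface of type I fibres. It had a signal of 62.9 in the parental tumour, 63.8, 46.0 and 47.0 in the telomerase tumours, and 94.9, 63.9, 80.1, 75.8 and 90.8 in the ALT tumours. The groups touched without overlap, at 63.8 in telomerase tumour 1 and 63.9 in ALT tumour 2. The mean rose from 52.3 ± 10 (SD, n = 3) in telomerase to 81.1 ± 12.4 (SD, n = 5) in ALT tumours, a log2 change of 0.51 (SE 0.152, 95% interval 0.17 to 0.85, adjusted p = 0.0459, limma). A second probe set of this gene, with a mean of 53.7, overlapped between the groups, from 21.5 in ALT tumour 4 to 132 in ALT tumour 5, and with the mean of all probe sets the change was 0.24 (adjusted p = 0.403). The call was lost when any array other than ALT tumour 2 was left out, with changes from 0.44 to 0.63 among those fits, and with the replicate number as a block (0.48, adjusted p = 0.133).

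Col23a1 encodes a transmembrane collagen. It had a signal of 80.9 in the parental tumour, 83.5, 69.7 and 62.5 in the telomerase tumours, and 44.4, 41.0, 25.5, 54.8 and 30.8 in the ALT tumours. The mean fell from 71.9 ± 10.7 (SD, n = 3) in telomerase to 39.3 ± 11.5 (SD, n = 5) in ALT tumours, a log2 change of -0.69 (SE 0.192, 95% interval -1.12 to -0.26, adjusted p = 0.0353, limma). The other 2 probe sets of the gene were weaker and showed the same order, with means of 51.5 and 9.11 for the one and 33.4 and 8.96 for the other in telomerase and ALT tumours. All 3 probe sets separated the groups, and with their mean the change was -1.04 (adjusted p = 0.00202, limma). In every ALT tumour the 2 weaker probe sets had signals below 25.27, the filter on low signals. Without detection calls it is unknown whether such signals stand above background. For the chosen probe set the call was lost when any array other than ALT tumour 4 was left out, with changes from -0.77 to -0.59 among those fits, and with the replicate number as a block (-0.74, adjusted p = 0.0646).

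**Figure D2:**
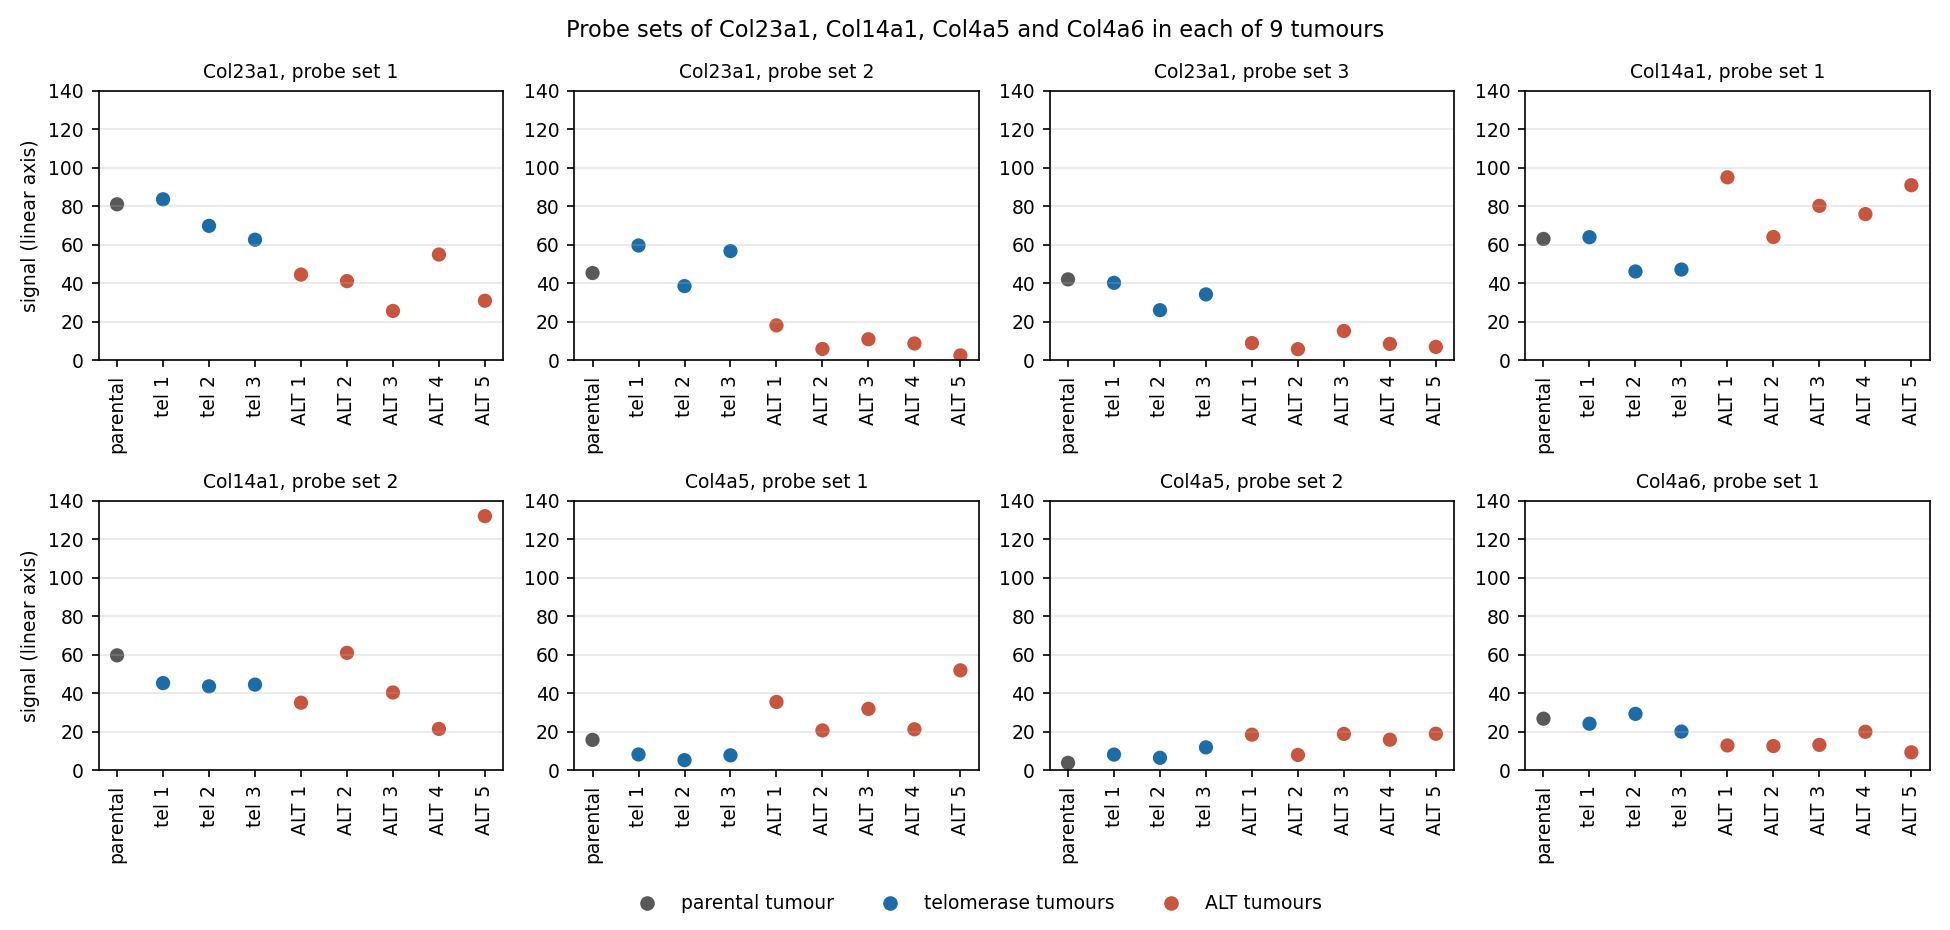
Signal (linear axis, from 0) of single probe sets of Col23a1, Col14a1, Col4a5 and Col4a6 in each of the 9 tumours; each point is 1 array, coloured by group, and probe sets of a gene are numbered by mean signal. All 3 Col23a1 probe sets are lower in every ALT tumour, while the second Col14a1 probe set reaches 132 in ALT tumour 5 and falls to 21.5 in ALT tumour 4.

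The groups did not overlap in 3 of 26 tested collagen genes (11.5%), against 24.8% of all tested genes. These were Col14a1, Col23a1 and Col13a1, another transmembrane collagen, with 27.3 ± 2.64 (SD, n = 3) in telomerase and 38.0 ± 7.71 (SD, n = 5) in ALT tumours and an adjusted p of 0.23 (limma). The median log2 change was -0.076 over the tested collagen genes and -0.00628 over all tested genes. By class, 0 of 8 tested fibrillar, 0 of 2 basement membrane and 0 of 5 type VI and other network collagens passed the threshold, beside 1 of 6 FACIT collagens and 1 of 5 of the remaining types. At an unadjusted p under 0.05 the first 3 classes also gave none.

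**Figure D3:**
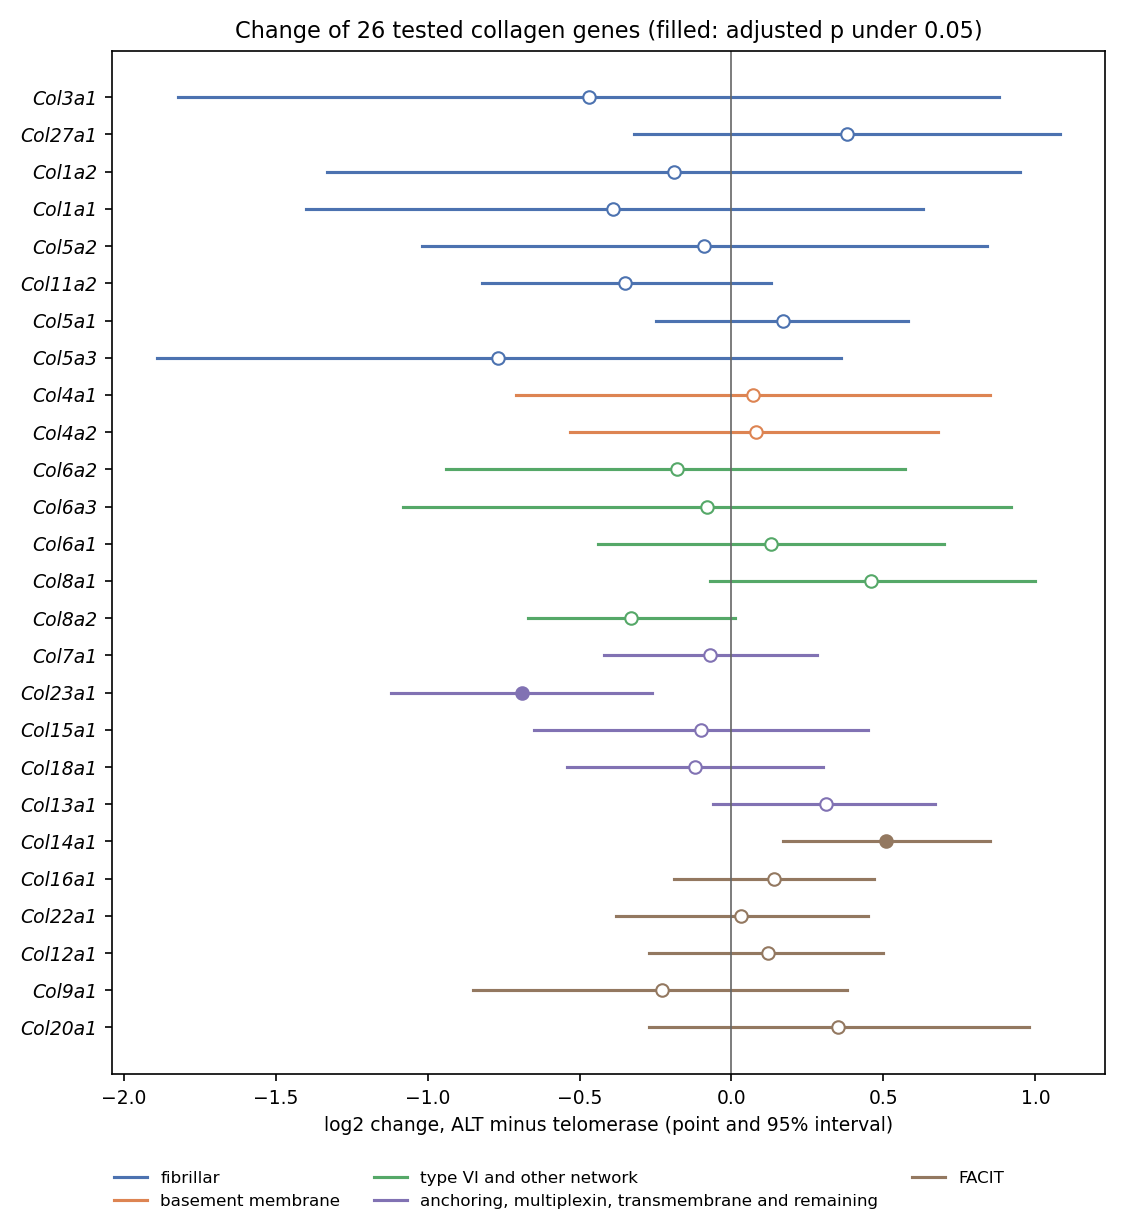
Log2 change of ALT against telomerase tumours (point) and its 95% interval from limma (line) for the 26 tested collagen genes, grouped by class and coloured as in the key; filled points passed an adjusted p of 0.05. The intervals of Col14a1 and Col23a1 lie apart from 0, and that of Col3a1 runs from -1.82 to 0.88.

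The spread between tumours set the strong collagens apart from most genes in a plain count. The SD of log2(signal + 16) over the 9 tumours exceeded 0.5 in 9 of 26 tested collagen genes (34.6%) and in 10.2% of all tested genes, and its median was 0.379 and 0.232. By class this held for 6 of 8 fibrillar, 1 of 2 basement membrane, 2 of 5 type VI and other network collagens and 0 of the other 11. The tested genes with a mean under 100 numbered 16, with means from 25.4 to 84.6, and they ranged from 1.63-fold between the highest and lowest tumour for Col16a1, a FACIT collagen, to 20.1-fold for Col5a3. Among them Col20a1 (4.43-fold) and Col8a1 (3.52-fold) also ranged more widely than Col4a2 (2.49-fold). The folds of Col20a1 and Col5a3 rest on low signals. Col20a1 had a mean of 25.4, at the filter of 25.27, and Col5a3 a lowest signal of 3.88, while that of Col4a2 was 231.

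**Figure D4:**
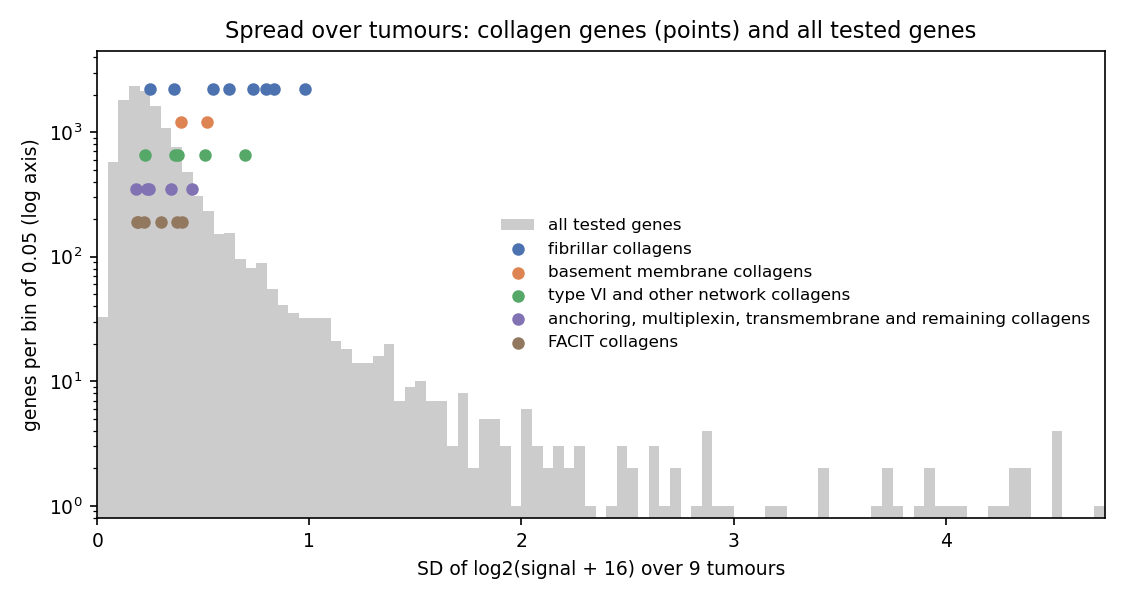
Histogram of the SD of log2(signal + 16) over 9 tumours for all 12375 tested genes (grey, log axis of gene numbers per bin of 0.05), with the 26 tested collagen genes as points in rows by class, whose height has no scale. The fibrillar points reach furthest to the right, with 6 of 8 above 0.5.

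The 16 collagen genes below the filter had means from 5.59 to 22.6 and highest signals from 12.0 to 51.9. They were the fibrillar Col2a1, Col11a1 and Col24a1, the basement membrane Col4a3 to Col4a6, the network-forming Col6a4, Col6a5 and Col10a1, the FACIT genes Col9a2, Col9a3 and Col19a1, and Col17a1, Col25a1 and Col26a1. Col2a1 and Col11a1 are known from cartilage and Col17a1 from the skin's anchoring junctions. With no filter 1 of these 16 genes, Col4a5, had an adjusted p under 0.05.

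The genes whose levels most resembled the mean log2 signal of Col1a1, Col1a2 and Col3a1 over the 9 tumours were Serpinh1 (r = 0.98), Csf2ra (0.98), Il33 (0.96), Mkln1os (0.96), Kcnd2 (0.96), Pold2 (0.95), Pgk1 (0.94), Fscn1 (0.94), Sparc (0.94) and Metrnl (0.94). These are likeness values over 9 points, chosen as the highest of 12349 genes, of which 127 (1.03%) exceeded 0.8. Serpinh1, the collagen chaperone, had a signal of 115 in the parental tumour, 128, 107 and 53.5 in the telomerase tumours, and 57.2, 71.3, 153, 46.4 and 137 in the ALT tumours. Its r was 0.97 without the tumours farthest from the median, ALT tumours 4 and 1, and its Spearman's rho over all 9 was 0.97. Sparc, a secreted collagen-binding protein, had a signal of 859 in the parental tumour, 1172, 863 and 512 in the telomerase tumours, and 618, 668, 1498, 374 and 1395 in the ALT tumours. Several of the others varied little, such as Pgk1, a glycolytic enzyme, at 1.25-fold between the highest and lowest tumour.

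For the mean of Col4a1 and Col4a2 the most similar genes were Cgn (r = 0.98), Hs3st2 (0.95), Tmem183a (0.94), Ext1 (0.94), Ccl2 (0.93), Sparc (0.92), Nrep (0.92), Tm4sf1 (0.91), Tmem47 (0.91) and A930024E05Rik (0.9). Sparc was in both sets of 10. Without ALT tumour 4 and telomerase tumour 3 the r of Cgn, a tight junction protein, was 0.94, and that of Nrep was 0.53, so that the likeness of Nrep rested on those 2 tumours. Ext1, which builds heparan sulphate chains, had a range of 1.45-fold.

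The genes of the collagen pathway were counted from lists, to be read against the 17.5% of all tested genes that were called, 7.47% as higher and 10.1% as lower. Of 21 tested genes for collagen modification and processing, 2 were higher and 1 was lower in ALT tumours (14.3% called). P3h4, a partner of the enzymes that modify collagen in the endoplasmic reticulum, rose from 26.0 ± 7.09 (SD, n = 3) to 94.2 ± 22.0 (SD, n = 5), with a log2 change of 1.38 (adjusted p = 0.00108, limma). Adamts3, which trims the amino-terminal propeptide of procollagen, was 15.0 in the parental tumour, 20.4, 23.7 and 24.8 in the telomerase tumours, and 66.5, 48.7, 68.3, 53.1 and 44.9 in the ALT tumours, with a log2 change of 0.88 (adjusted p = 0.00482). Outside the ALT tumours it lay below the filter of 25.27, so it was tested only because it was high in them. P4ha2, a subunit of the prolyl 4-hydroxylase that stabilises the triple helix, was 144 in the parental tumour, 137, 110.1 and 165 in the telomerase tumours, and 46.9, 35.0, 56.8, 32.0 and 67.5 in the ALT tumours, and fell by 1.28 on the log2 scale (adjusted p = 0.00268). Serpinh1 and Pcolce, which enhances propeptide removal, were the 2 of the 21 with an r above 0.8 to the fibrillar trio, and neither passed the test (log2 changes -0.09 and -0.19, adjusted p = 0.891 and 0.722).

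Of 10 tested genes of collagen breakdown 1 was higher in ALT tumours and 0 were lower. Timp2, an inhibitor of metalloproteinases, had a signal of 1833 in the parental tumour, 1705, 1631 and 1911 in the telomerase tumours, and 4835, 4759, 4286, 4348 and 5022 in the ALT tumours. Its log2 change was 1.4 (adjusted p = 1.14e-05, limma). With the mean of all its probe sets the adjusted p was 0.0874. Mmp2, Mmp14 and Timp1, 3 of these 10 genes, followed the fibrillar trio with an r above 0.8 and did not pass the test. Mmp14, a membrane-bound collagenase, was 418 in the parental tumour, 428, 431 and 196 in the telomerase tumours, and 204, 233, 421, 178 and 307 in the ALT tumours. Mmp3, a secreted metalloproteinase named after its values were seen, was 280.3 in the parental tumour and 173 and 319.6 in telomerase tumours 1 and 2, and between 11.1 and 43.4 in the other 6 tumours, with an adjusted p of 0.0746.

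Of 9 tested collagen receptors 1 was higher, Itga2, the alpha chain of a collagen-binding integrin, at 25.1 ± 4.51 (SD, n = 3) and 53.8 ± 9.17 (SD, n = 5), with a log2 change of 0.76 (adjusted p = 0.0105, limma), a share of 11.1% called. Its telomerase mean was below the filter. Of 22 other matrix proteins 1 was higher (4.55%), Lama5, a basement membrane laminin chain (0.91, adjusted p = 0.0308), a call that was lost without telomerase tumour 1 or 3 or without ALT tumour 1, 2 or 4, with adjusted p up to 0.134. In this list Sparc, Postn, Tnc and Nid2 followed the fibrillar trio with an r above 0.8. Postn, a matrix protein of activated fibroblasts, ranged 14.4-fold, from 44.5 in ALT tumour 4 to 639 in ALT tumour 5.

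Of 15 tested genes of TGF-beta and PDGF signalling, which drive collagen synthesis in fibroblasts, 3 were higher and 0 lower (20% called, against 17.5% of all tested genes). Tgfb3, a TGF-beta ligand, rose from 35.1 ± 6.55 (SD, n = 3) to 118 ± 15.6 (SD, n = 5), with a log2 change of 1.39 (adjusted p = 0.000287, limma). Ccn2, a secreted TGF-beta target, had a log2 change of 1.82 (adjusted p = 0.0164), with 178 in telomerase tumour 3 above 152 in ALT tumour 4, and the call was lost without telomerase tumour 1 or 2, with adjusted p up to 0.0762. Smad2, a signal transducer of TGF-beta receptors, had a change of 0.55 (adjusted p = 0.0148), lost without telomerase tumour 1 or 3 (adjusted p up to 0.0609), and with the mean of all its probe sets the change turned to -0.03. None of the 15 had an r above 0.8 to the fibrillar trio, near the share of 1.03% of all tested genes outside the collagens. Among called genes of these lists, r was -0.46 for Tgfb3, -0.14 for Ccn2, -0.32 for Timp2 and 0.47 for P4ha2. The trio was high and low within both groups, so a gene that followed it closely could hardly separate them, and no conclusion is drawn.

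**Figure D5:**
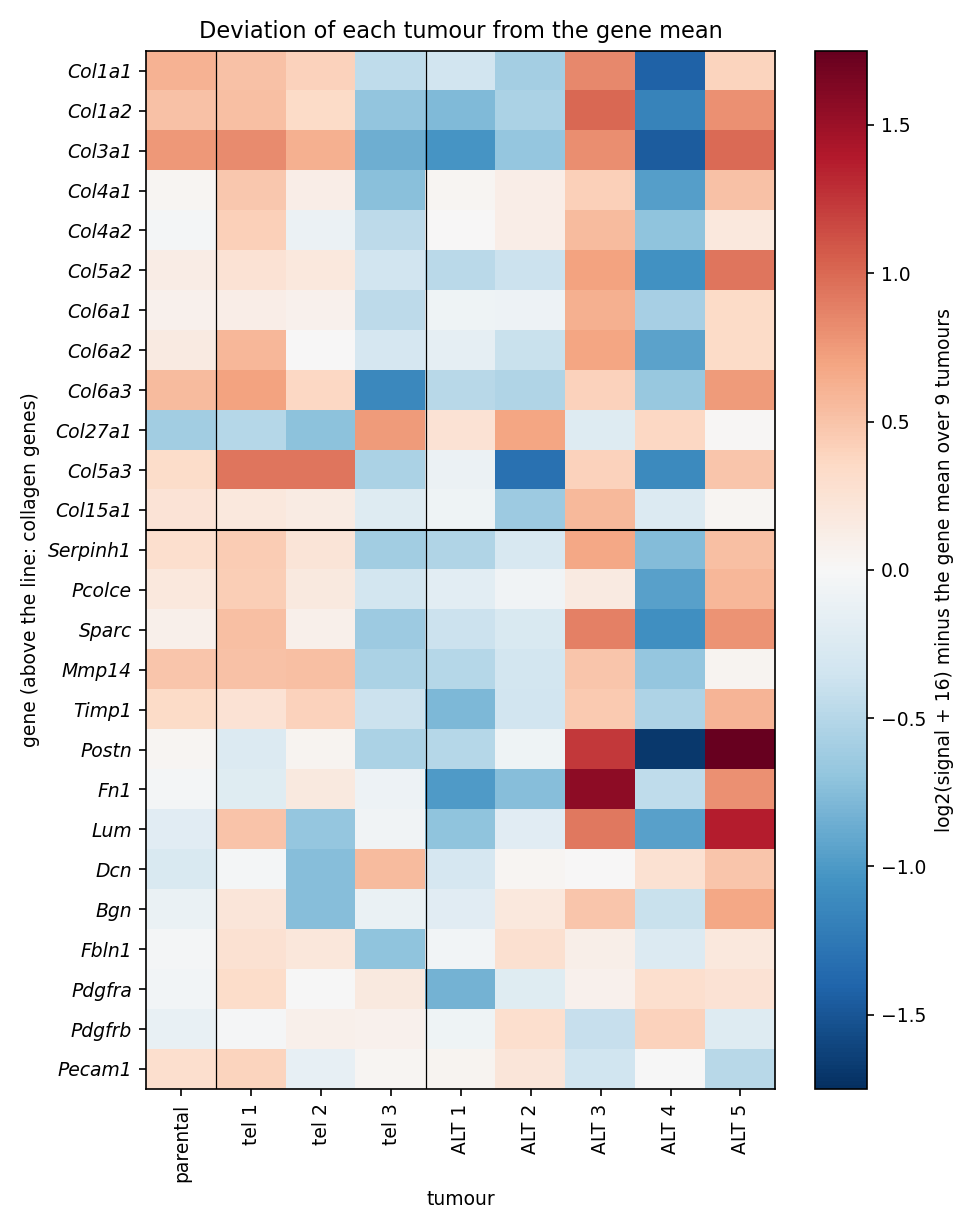
Colour map of log2(signal + 16) minus the mean of each gene over 9 tumours (red higher, blue lower; columns are tumours, with lines between the parental, telomerase and ALT tumours), for 12 collagen genes above the horizontal line and 14 matrix, fibroblast and vessel genes below it. Serpinh1 and Sparc show the colours of Col1a2 and Col3a1, and Dcn, Pdgfra, Pdgfrb and Pecam1 do not. Lum and Fbln1 do so in part, with r of 0.7 and 0.53 to the fibrillar trio. Pecam1 is 1 of 10 tested endothelial markers, whose median r was 0.36.

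The array reads mouse RNA of tumour and host alike, so these files cannot show that the collagen signal came from host cells. Transcripts of the T-cell receptor complex were strong in every tumour, with Cd3g, one of its chains, between 4108 and 9633. Of 16 fibroblast markers 14 passed the filter, and Twist1, a transcription factor of mesenchymal cells, lay between 1.15 and 19.8. Their summed signal ranged from 5261 to 5887 in telomerase and from 4435 to 5781 in ALT tumours. The strongest genes weigh most in this sum. Pdgfrb alone gave 2496 of 5261 in telomerase tumour 2 and 3104 of 5781 in ALT tumour 4. The sum is therefore no measure of fibroblast content. None of the 14 followed the fibrillar trio with an r above 0.8, a count near the share of 1.03% of all tested genes outside the collagens. Their median r was 0.27, against -0.02 for all tested genes outside the collagens. Among those picked here after their values were seen, r was 0.7 for Lum, 0.57 for Dpt, 0.53 for Fbln1, 0.25 for Pdgfra and -0.27 for Dcn. Dcn, a small proteoglycan of fibroblasts, was 695 in the parental tumour, 822, 498 and 1249 in the telomerase tumours, and 684, 866, 844, 1023 and 1185 in the ALT tumours, with its highest value in a tumour that was low in Col3a1. Pdgfrb, a receptor of fibroblasts and pericytes, had an r of -0.79 and was highest in ALT tumour 4, at 3104. Of these 14 markers 3 were lower in ALT tumours and 0 higher (21.4% called). Among all tested genes 17.5% were called, 10.1% as lower. The 3 were Islr at 227 ± 7.92 (SD, n = 3) and 129.6 ± 4.4 (SD, n = 5) with an adjusted p of 0.00059, Gsn with 0.00819 and Cxcl12 with 0.0447 (limma). The Cxcl12 call was lost when any array other than telomerase tumour 3 or ALT tumour 4 was left out, with adjusted p up to 0.19.

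Of 10 endothelial markers 1 had an r above 0.8 to the fibrillar trio, Esam, an adhesion molecule of endothelial junctions (10% against 1.03% of all tested genes outside the collagens), with a median r of 0.36. In the group comparison 1 of the 10, Egfl7, was lower in ALT tumours (log2 change -0.49, adjusted p = 0.0186, limma). That is 10% called, against 17.5% of all tested genes. The Egfl7 call was lost without telomerase tumour 1 or 2 (adjusted p up to 0.0872). Of 9 smooth muscle and pericyte markers, with a median r of 0.15, 0 passed the threshold (limma). An unadjusted p under 0.05 was found for 1 of them, and for 3887 of all 12375 tested genes. The strongest by mean, Notch3 and Rgs5, had adjusted p of 0.511 and 0.552. Of 9 tested macrophage markers 0 passed (limma), 1 with an unadjusted p under 0.05. The sums over all 10 macrophage markers on the array ran from 6175 to 9104 in telomerase and from 6173 to 9651 in ALT tumours. None of the 9 tested had an r above 0.8, a count near that share of 1.03%, and their median r was -0.29. Of 13 T-cell markers 3 were higher and 4 lower in ALT tumours (53.8% called, against 17.5% of all tested genes). Among them Cd3g had a log2 change of -0.82 (adjusted p = 0.000788, limma). The summed signal of the T-cell markers was lowest in ALT tumour 5, at 32324.

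Transcripts of pancreatic acinar cells were present in 4 arrays, with summed signals of 101746 in telomerase tumour 3 and 76436, 121637 and 161388 in ALT tumours 1, 2 and 5, and from 265 to 875 in the other 5. Of the 4 tumours low in Col3a1, telomerase tumour 3 and ALT tumours 1 and 2 carried them and ALT tumour 4, at 536, did not, while ALT tumour 5 carried them with the highest Col3a1 signal. None of the 11 acinar markers had an r above 0.8 to the fibrillar trio, beside 1.03% of all tested genes outside the collagens. Their median r was -0.32. The log2 change of Col3a1 was -0.47 in the full comparison, -1.04 within the arrays without these transcripts (2 telomerase and 2 ALT tumours) and 0.61 within those with them, where 1 telomerase tumour stood against 3 ALT tumours. None of these passed the test. Skeletal muscle markers summed to 14145 in the parental tumour, 9132 in telomerase tumour 1 and 614 in telomerase tumour 2, and to at most 349.6 in the other 6. The parental tumour and telomerase tumours 1 and 2 were also high in fibrillar collagens. ALT tumours 3 and 5, likewise high in them, had muscle sums of 314 and 257. The median r of the 12 muscle markers to the fibrillar trio was 0.45, the highest of the cell type lists. None of the 12 had an r above 0.8, beside that share of 1.03%. Between the groups 0 of 11 acinar, 0 of 12 muscle, 0 of 2 adipocyte and 0 of 2 cartilage markers passed the threshold (limma). Among all tested genes 17.5% did. An unadjusted p under 0.05 was found for 0, 5, 1 and 0 of these markers, and for 3887 of all 12375 tested genes. Without telomerase tumour 3, 3 of the 12 muscle markers were lower, beside 908 of all 12375 genes. When the parental tumour joined the telomerase group 4 were lower, beside 1772 of all genes. Beyond these values the part of either tissue in the collagen signals was not tested.

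Neighbouring collagen genes moved together in 3 pairs of strong genes: Col4a1 with Col4a2, Col3a1 with Col5a2 on chromosome 1 (r = 0.92) and Col6a1 with Col6a2 (r = 0.9). The pairs of weak neighbours Col4a3 with Col4a4 (0.16), Col9a1 with Col19a1 (-0.14) and Col6a4 with Col6a5 (0.42) did not, as a description over 9 tumours. Col1a1 and Col1a2, on chromosomes 11 and 6, had an r of 0.95, a value as high as those of neighbours. For the 7 strong genes with several probe sets, the 7 further probe sets with a mean of at least 25 followed the chosen one with r from 0.81 to 0.99.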

How the data were processed

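Total RNA of 9 tumours was labelled with biotin and hybridised to 3' expression arrays of 45101 probe sets. The deposited values are a linear intensity per probe set; the submitters' processing notes name MAS5 as the authors' tool, with its version and scaling target not given in the sources used here. Array medians lay between 39.83 and 43.83 and upper quartiles between 193.7 and 210.43, and 0 pairs of arrays were identical. No depth applies to arrays, whose number limits the precision. Here 64 control probe sets were left out; of the others 34945 named 1 gene, 932 several and 9160 none. Genes with a mean below 25.27, the lowest 40% of probe sets, were not tested. Values were analysed as log2(signal + 16), and a change on this scale understates that of weak genes.

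The comparison used limma 3.58.1 in R 4.3.3 (trend, two-sided, Benjamini-Hochberg over 12375 genes), and it was tested on simulated data. The parental tumour, with no replicate, was only described. Other settings were pseudocounts of 1 and 64, no filter or 60%, quantile normalisation, median centring, the mean of probe sets, the parental tumour added, a replicate block, no trend, robust moderation, an adjusted p of 0.1 and each array left out; 3 settings on pancreatic transcripts were added after seeing the data. Values in all tumours were given for collagen genes with a mean of at least 100, for those past the threshold and for those with over 5-fold between tumours and a highest signal of at least 100. From each other list up to 6 genes past the threshold were eligible by smallest p, or the 2 strongest where none passed, and 10 genes most like each of 2 collagen sets; others were picked after their values were seen (Pcolce, Mmp14, Postn, Dcn, Lum, Dpt, Fbln1, Pdgfra, Pdgfrb, Esam and Twist1 among them). The members and lists were chosen with earlier results of these data known. Python 3.11.15, numpy 2.4.6, pandas 2.3.3 and matplotlib 3.10.9 were used.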

Additional observations from a re-analysis of the deposited data

Results flagged for a closer look

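Of 106 genes with values examined in the ALT group, 1 had a tumour far from the others. Acta2, smooth muscle actin, had a signal of 798 in ALT tumour 3 and from 178 to 278 in the other 4 ALT tumours, a gap of 0.838 of the whole range against a critical value of 0.71. Chance alone flags about 1 in 20 groups. ALT tumour 3 was also the tumour with the highest Col1a1 and Col1a2 signals, and Acta2 had an r of 0.3 to the fibrillar trio over 9 tumours.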

How the results depend on the processing

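The count of collagen genes higher in ALT tumours was 1 and became 0 with a filter at 60%, the mean of all probe sets, the replicate block, the term for pancreatic transcripts, and the arrays without or with these transcripts; the count lower was 1 and became 0 under the same settings except the mean of probe sets. Leaving out 1 array gave from 0 to 1 in either direction. With no filter both counts stayed 1, but Col4a5 took the place of Col14a1. The filter at 60% left 12 collagen genes, without Col14a1 and Col23a1. The replicate block called 372 genes higher and 619 lower of all genes, against 925 and 1244. The same-numbered tumours correlated with r of -0.3, -0.4 and -0.57. Each of these pairs joined a tumour with pancreatic transcripts to a tumour without them. Telomerase tumour 3 had r of 0.39, 0.45 and 0.41 with ALT tumours 1, 2 and 5, which also carried them. The values therefore cannot show whether the numbers mark a pairing. Within arrays without pancreatic transcripts 379 and 454 genes passed, within those with them 136 and 193, and with the parental tumour added 1294 and 1772. Leaving out telomerase tumour 1 gave 504 and 659.

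No strong collagen gene other than Col27a1 without telomerase tumour 3 passed the threshold under any setting. Small changes turned sign when 1 array was left out, with ranges of -0.56 to 0.07 for Col1a2, -0.38 to 0.06 for Col6a2, -0.64 to 0.28 for Col6a3, -0.34 to 0.16 for Col5a2, -0.27 to 0.33 for Col4a1, -0.13 to 0.31 for Col4a2 and -0.05 to 0.29 for Col6a1. With the term for pancreatic transcripts Col6a3 turned to 0.09. In the arrays without these transcripts Col4a1 turned to -0.56, Col4a2 to -0.23 and Col6a1 to -0.07. In the arrays with them Col3a1 turned to 0.61, Col27a1 to -0.43, Col1a2 to 0.51, Col6a2 to 0.23, Col6a3 to 1.04, Col1a1 to 0.26 and Col5a2 to 0.36. The cause was not tested. Fits within arrays with these transcripts have 1 telomerase tumour, assumed to vary like the others. Of the called genes of the other lists, Tgfb3 kept its call in all 22 settings; Smad2 lost it in 6 and turned sign in 1. Over all settings the counts of the other lists ranged from 0 to 5 higher for collagen modification and processing, 0 to 2 higher for breakdown, 0 to 1 higher and 0 to 2 lower for receptors, 0 to 1 higher for other matrix proteins, 1 to 3 higher for TGF-beta and PDGF signalling, 0 to 3 lower for fibroblast, 0 to 4 lower for skeletal muscle and 0 to 2 lower for smooth muscle and pericyte markers, and 0 to 5 higher and 0 to 4 lower for T-cell markers. The lists not given here moved by at most 1 in either direction.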
